A study of Mus musculus with 6 samples.

Results

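The genes described here encode calmodulin (Calm2 and Calm3), the small IQ-motif proteins Pcp4, Pcp4l1 and Nrgn, and the calcium/calmodulin-dependent kinase CaMKII (Camk2a, Camk2b, Camk2d and Camk2g). They are 9 of the 19019 genes tested, and were taken by the gene symbol of the array platform, which gave 18 of 44290 spots. All 18 spots had a value on every array. The set was chosen by gene family with the 6 ratios of these arrays known, and Pcp4 was selected on its mean ratio, among the most negative of all genes, so the mean ratios of all 9 genes are given as a description, with no test against 0. Tests of these genes are given for differences between spots and between dye orientations alone.

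N18, a mouse neuroblastoma line, was profiled on 6 Agilent arrays with 2 colours. Each array set total RNA of N18 cells transfected with an siRNA against Nrsf (official symbol Rest, a repressor of neuronal genes) against RNA of N18 cells transfected with a scrambled siRNA. The Nrsf siRNA sample carried Cy5 on arrays 1, 2 and 3 and Cy3 on arrays 4, 5 and 6. Nothing in the labels says whether the 6 samples came from separate transfections, so spreads and p-values describe these samples and may be partly technical. Each value is a log ratio, read as log2 of Nrsf siRNA over scrambled siRNA. Neither the log base nor the numerator is stated by the submitters: a natural log would make each fold larger, and the opposite numerator would turn every direction round. A ratio carries no level, so how strongly N18 cells express each gene, and whether a spot stood above background, cannot be read from these values.

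Calmodulin is the small EF-hand protein that senses calcium in nearly all cells. With calcium bound it switches on many enzymes, among them CaMKII, a kinase of many subunits that phosphorylates itself and is known for its part in synaptic plasticity. Pcp4 (also called PEP-19) and neurogranin (Nrgn) are small neuronal proteins whose IQ motif binds calmodulin and so sets how much of it is free or how fast it exchanges calcium. In mammals the calmodulin genes encode the same protein, whereas the alpha and beta chains of CaMKII (Camk2a, Camk2b) are the main brain forms and the delta and gamma chains (Camk2d, Camk2g) occur in most tissues.

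The promoters of Pcp4, its relative Pcp4l1, Nrgn and Camk2d are shown because these genes belong to the set but had unlike ratios. Each is the 250 bases before the RefSeq start on GRCm38.p6, written 5′ to 3′ on the gene's strand, with CG dinucleotides in capitals.
Pcp4 (chr16:96467356-96467605, + strand): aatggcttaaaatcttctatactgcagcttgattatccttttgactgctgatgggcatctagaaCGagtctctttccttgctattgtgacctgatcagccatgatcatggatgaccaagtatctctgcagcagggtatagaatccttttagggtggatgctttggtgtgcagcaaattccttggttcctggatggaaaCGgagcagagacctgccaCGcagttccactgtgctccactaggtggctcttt
Pcp4l1 (chr1:171196269-171196518, - strand): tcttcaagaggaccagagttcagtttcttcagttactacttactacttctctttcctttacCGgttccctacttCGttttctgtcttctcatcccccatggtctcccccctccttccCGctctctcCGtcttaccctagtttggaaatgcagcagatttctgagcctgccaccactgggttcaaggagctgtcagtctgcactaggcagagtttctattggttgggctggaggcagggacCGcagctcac
Nrgn (chr9:37552746-37552995, - strand): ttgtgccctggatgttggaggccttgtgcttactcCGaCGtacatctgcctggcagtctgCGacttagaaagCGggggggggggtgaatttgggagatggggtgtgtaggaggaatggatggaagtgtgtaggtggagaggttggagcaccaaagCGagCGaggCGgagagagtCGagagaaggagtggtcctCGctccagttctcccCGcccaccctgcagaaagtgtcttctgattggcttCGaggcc
Camk2d (chr3:126596701-126596950, + strand): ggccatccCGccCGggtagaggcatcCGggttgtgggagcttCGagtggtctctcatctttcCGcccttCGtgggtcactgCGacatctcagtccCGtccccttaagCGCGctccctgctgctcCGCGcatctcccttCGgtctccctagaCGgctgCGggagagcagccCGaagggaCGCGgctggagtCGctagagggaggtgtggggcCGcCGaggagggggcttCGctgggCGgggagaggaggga
Promoter windows were taken for 6 of the 9 genes, and Calm2, Camk2a and Camk2g are named only. The Pcp4 promoter held 3 CG dinucleotides and that of Pcp4l1 held 5, against a median of 6 over 32851 promoters of the same length. Nrgn had 11, Camk2d 23, Calm3 33 and Camk2b 44. REST is known to bind a long element, and its outer parts TTCAGCACC and GGACAGCGC were searched as exact letters on both strands. Neither stood in any of the 6 promoter windows, and 0.301% and 0.304% of all promoters held them. GGGCGG, the core letters of a GC box, was present 3 times in Camk2b, 3 times in Camk2d and 1 time in Nrgn, and was held by 32.7% of all promoters. These are matches of letters in a short window and say nothing of binding.

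Among the member genes, Pcp4 stood far below the others, Camk2g and Camk2d were lower in Nrsf siRNA cells by small amounts, Calm2 and Camk2a were slightly higher, and Nrgn, Camk2b, Calm3 and Pcp4l1 had no common sign over the arrays. Below 0 on all 6 arrays were 3 genes, and above 0 on all 6 were 2, beside 11.6% and 6.30% of all genes. Since the ratios had a part in choosing the set, nothing is read from these counts. The median of the 9 mean ratios was 0.003, beside 0.0025 for all genes.

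**Figure D1:**
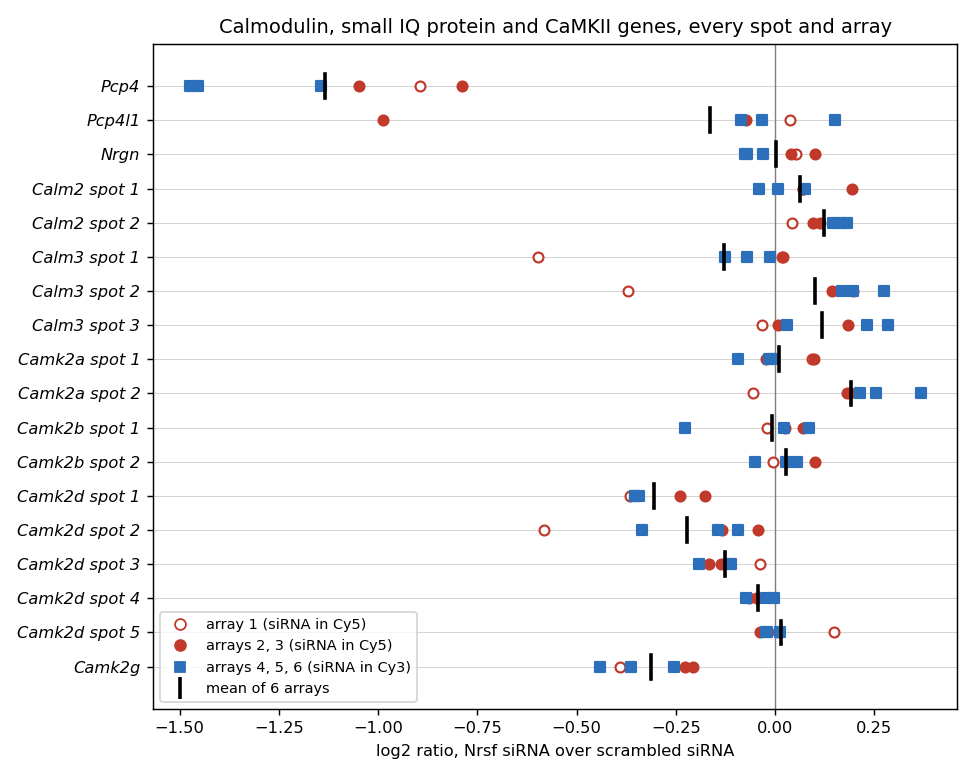
The log2 ratio of Nrsf siRNA over scrambled siRNA (x axis) for each of the 18 spots of the 9 genes, with a point per array and a bar at the mean of the 6 arrays; spots of a gene are numbered from the lowest mean to the highest. All 6 points of Pcp4 lie at or below -0.79, 1 point of Pcp4l1 lies apart at -0.99, and array 1 (open circles) lies apart on 2 spots of Calm3.

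The array platform and the knockdown set the limits for all these genes. Rest itself was at -0.35 ± 0.13 (SD, n = 6), below 0 on 6 of 6 arrays, but its 3 spots stood at -0.55, -0.44 and -0.05. Across genes, array 1 correlated with the other arrays at 0.287 to 0.367 and the other arrays with each other at 0.537 to 0.825. Array 1 also had a wider lower tail, with a 5th percentile over genes of -0.53, against -0.26 to -0.21 for arrays 2 to 6. None of 13 measured markers of glial, immune or mesenchymal cells was called by limma (0 had an unadjusted p under 0.05), with mean ratios between -0.043 and 0.034. A ratio does not show whether these markers are expressed at all, so nothing is read from them. Whether changes came from every cell or from a shift in the mix of cells cannot be told apart in RNA of whole cultures.

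Pcp4, the small IQ protein first named in Purkinje cells, had the most negative ratio of the set. On arrays 1, 2 and 3 its single spot was at -0.89, -0.79 and -1.05, and on arrays 4, 5 and 6 at -1.15, -1.48 and -1.45. These values are what the gene was picked for. The mean was -1.13 ± 0.28 (SD, n = 6), which is 45.6% of the level in scrambled siRNA cells or a 2.19-fold difference (3.11-fold if the values were natural logs). It ranked 7 from the lowest of 19019 genes. With 1 spot there is no second probe to set beside it.

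The other small IQ proteins did not share that ratio. Pcp4l1, a close relative of Pcp4, was at 0.04, -0.99 and -0.07 on arrays 1, 2 and 3 and at -0.03, -0.09 and 0.15 on arrays 4, 5 and 6. A single array, the second, therefore carried its mean of -0.165 ± 0.413 (SD, n = 6). Without array 2 the mean was -0.001 ± 0.097 (SD, n = 5). Nrgn, the postsynaptic protein neurogranin that holds calmodulin at low calcium, had a mean of 0.003 ± 0.073 (SD, n = 6), with 0.05, 0.10 and 0.04 on arrays 1, 2 and 3 and -0.03, -0.07 and -0.08 on arrays 4, 5 and 6. Its sign followed the dye orientation, positive where Nrsf siRNA RNA carried Cy5 and negative where it carried Cy3.

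The calmodulin genes themselves were close to 0. Calm2 lay between 0.051 and 0.144 with a median of 0.089 over the arrays, and its mean was 0.093 ± 0.037 (SD, n = 6), a 1.07-fold difference. Of its 2 spots, both listed for the same transcript, one averaged 0.124 ± 0.051 and the other 0.062 ± 0.079, and the lower of these was below 0 on array 6. Calm3 had a ratio of -0.334 on array 1, whereas arrays 2 to 6 gave 0.074 to 0.127. Its mean of 0.030 ± 0.179 (SD, n = 6) was 0.103 ± 0.020 (SD, n = 5) without array 1, a value of more than 3 times the size. The 3 spots of Calm3 averaged -0.128, 0.101 and 0.117, and on array 1 they stood at -0.598, -0.371 and -0.033. The ratio of Calm3 on array 1 goes with the wide lower tail of that array given above, and the part of that tail in this value was not tested.

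Among the CaMKII genes, the broadly expressed gamma and delta chains were lower in Nrsf siRNA cells and the brain forms were not. Camk2g, the gamma chain, lay between -0.442 and -0.208 with a median of -0.309. Its mean was -0.31 ± 0.10 (SD, n = 6), which is 80.4% of the scrambled siRNA level, and 2.73% of all genes had a lower mean. It too rests on 1 spot. Camk2d, the delta chain, lay between -0.177 and -0.094 with a median of -0.132, and its mean over 5 spots was -0.136 ± 0.033 (SD, n = 6). Both genes were below 0 on all 6 arrays, and their arrays did not overlap.

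The 5 spots of Camk2d ran from clearly negative to 0, so its gene mean depends on which spots it holds. The spot with the lowest mean, listed for NM_023813, was at -0.305 ± 0.078, with a lowest array of -0.366, a median of -0.348 and a highest array of -0.176. A second spot listed for the same transcript was at -0.127 ± 0.053. The spot of NM_001025439 was at -0.222 ± 0.203, drawn down by array 1 at -0.583. The spots listed for the cDNA clones AK086018 and AK032524 were at -0.043 ± 0.027 and 0.014 ± 0.069. The highest minus the lowest spot was 0.320 ± 0.125 (SD, n = 6), with the same sign on 6 of 6 arrays. By exact sign-flip permutation, two-sided, p was 0.0312 (no lower value can be had with 6 arrays) and 0.156 after Benjamini-Hochberg adjustment over 5 genes. That pair was picked as the extremes of 5 spots, which makes the p too small.

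Camk2a, the alpha chain best known from hippocampal synapses, lay between 0.018 and 0.139 with a median of 0.112, and its mean was 0.100 ± 0.046 (SD, n = 6). Its spots differed in size: the spot of NM_177407 averaged 0.191 ± 0.139 and that of NM_009792 0.009 ± 0.073. The difference was 0.182 ± 0.203 (SD, n = 6), positive on 5 of 6 arrays, with p = 0.0938 in the exact sign-flip permutation test and 0.156 after adjustment. Camk2b, the beta chain that binds actin, was at 0.009 ± 0.054 (SD, n = 6), between -0.086 and 0.063, and its 2 spots averaged 0.026 and -0.008. For the spots of Camk2b, Calm2 and Calm3 the same exact permutation test gave p-values of 0.656, 0.219 and 0.0625. After adjustment these were 0.656, 0.273 and 0.156. With 6 arrays this test gives no p under 0.0312, so 1 gene alone could not pass after adjustment over 5 genes. That no pair passed is therefore not read as agreement between spots.

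In order of mean ratio the genes ran Pcp4, Camk2g, Pcp4l1, Camk2d, Nrgn, Camk2b, Calm3, Calm2 and Camk2a. The arrays of Pcp4 did not overlap with those of Camk2g. From Nrgn upward in this order, neighbouring genes differed by less than the larger of their standard deviations, and Pcp4l1 could not be placed because of its second array.

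The dye orientation was a measure that had no part in choosing the genes. Pcp4 averaged -0.91 ± 0.13 on the arrays with Nrsf siRNA RNA in Cy5 and -1.36 ± 0.18 on those with Nrsf siRNA RNA in Cy3 (SD, n = 3 each), and the arrays of the orientations did not overlap. The difference, Cy5 minus Cy3, was 0.447 with a standard error of 0.108. It had an unadjusted p of 0.00497 in the limma fit and an adjusted p of 0.429 over all genes. Without single arrays the difference for Pcp4 lay between 0.387 and 0.553. Under quantile normalization it was only 0.135 (adjusted p = 0.807 in limma), so its size depends on the normalization. Nrgn had 0.065 ± 0.032 in the Cy5 orientation and -0.060 ± 0.025 in the Cy3 orientation, with a difference of 0.124 and a standard error of 0.040 (unadjusted p = 0.0188 and adjusted p = 0.500 in limma). The other 7 genes had an unadjusted p above 0.05. Of all 19019 genes, 0 passed for the dye orientation (0%), while 1756 (9.23%) had an unadjusted p under 0.05 in limma. Without array 1, 626 genes passed and 0 of them were among the 9.

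**Figure D2:**
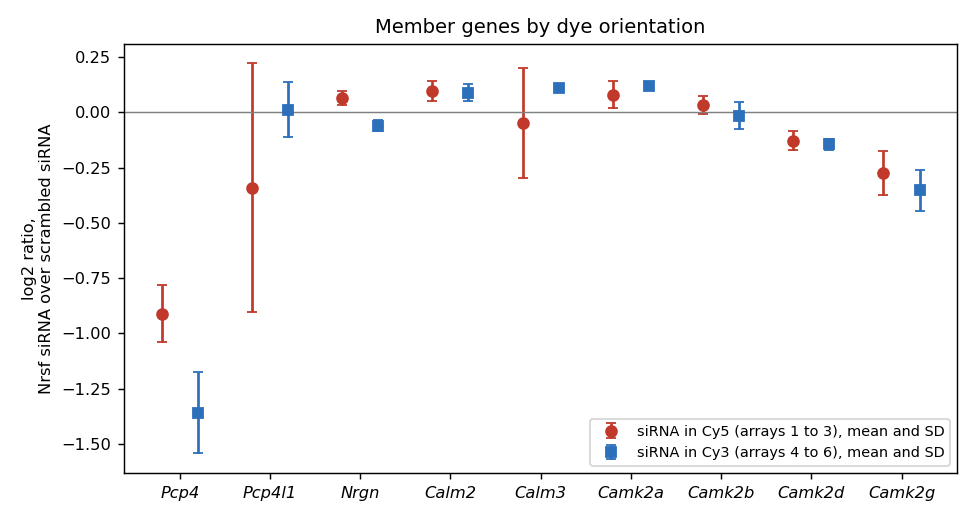
Mean log2 ratio of Nrsf siRNA over scrambled siRNA (y axis) of the 9 genes, with Nrsf siRNA RNA in Cy5 (circles, arrays 1 to 3) and in Cy3 (squares, arrays 4 to 6); bars are standard deviations. Pcp4 is far below 0 in both orientations (-0.91 and -1.36), Camk2g and Camk2d are below 0 in both, and the wide bars of Pcp4l1 and Calm3 hold arrays 2 and 1.

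The genes whose 6 ratios lay nearest to those of Pcp4 were looked up by the root mean square difference over the arrays. RIKEN clones, predicted genes and genes with only a clone name were skipped. Pcp4 was picked for these same ratios, so the lookup could return only genes with similarly low ratios, and nothing is read from the likeness. Gtf2a2, which encodes part of the basal factor TFIIA, differed by 0.212 and averaged -1.04 ± 0.11 over its arrays. Trappc2l, of a complex that tethers transport vesicles, differed by 0.275 with a mean of -0.99 ± 0.06. Larp7, an RNA-binding protein of the 7SK particle, differed by 0.287 with a mean of -1.04 ± 0.03 (SD, n = 6 for each). All these genes were spread less over the arrays than Pcp4, which has 1 spot, as does Trappc2l. The ratios of Gtf2a2 and Larp7 are means of 3 and 2 spots, which can narrow the spread.

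Beyond the set, 127 further genes of calmodulin signalling were put in 7 lists, of which 118 were measured. In the limma fit 16 of the 118 rose and 5 fell, so that 17.8% were called at an adjusted p under 0.05, beside 15.0% of all 19019 genes (5.88% higher and 9.11% lower). The 97 others were not called. The median of the 118 mean ratios was 0.003, near that of all genes (0.0025). Counts of calls moved with single arrays, in the lists as over all genes. Without array 1, 30 of the 118 were called (25.4%), beside 25.9% of all genes. Without array 5, 7 were called (5.93%), beside 5.87% of all genes, and without array 2, 3, 4 or 6 the list counts were 9, 13, 11 and 9, beside 9.51%, 10.6%, 8.21% and 6.38% of all genes. The excess of lower calls over all genes (1119 higher and 1733 lower) turned round without array 1, with 2603 higher and 2318 lower.

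**Figure D3:**
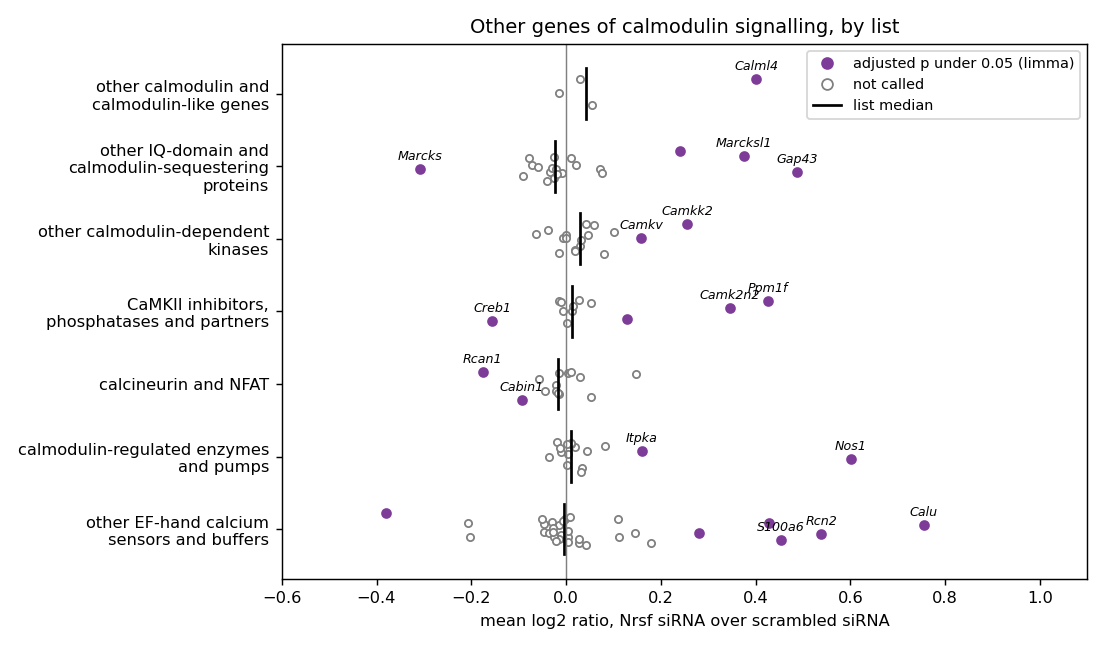
Mean log2 ratio of Nrsf siRNA over scrambled siRNA (x axis) of each measured gene in the 7 lists, filled where limma gave an adjusted p under 0.05, with a bar at the list median. The medians lie between -0.023 and 0.042, and Calu at 0.76 and Nos1 at 0.60 are farthest to the right.

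Of the other calmodulin and calmodulin-like genes, 1 of 4 measured rose and none fell. Calml4, a calmodulin-like gene, had a mean ratio of 0.40 ± 0.24 (SD, n = 6, adjusted p = 0.0271 in limma), from 0.007 on array 1 to 0.664 on array 3. The call held without array 1 and was lost when any other single array was left out. The rest of this list lay between -0.014 and 0.054.

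Proteins that hold calmodulin through an IQ domain or a similar stretch went both ways, with 3 of 20 measured genes higher and 1 lower, and a list median of -0.023. Gap43, the growth cone protein that shares the calmodulin-binding IQ stretch with Nrgn, rose by a mean ratio of 0.49 ± 0.22 (adjusted p = 0.00968 in limma) and lay at 0.06 on array 1 and from 0.47 to 0.65 on the others. Marcksl1 was at 0.38 ± 0.23 (adjusted p = 0.0270 in limma). Marcks, a membrane-bound protein kinase C substrate that takes up calmodulin, fell with a mean ratio of -0.31 ± 0.18 (adjusted p = 0.0195 in limma; SD, n = 6 for each), between -0.564 and -0.106. The call of Gap43 was lost without array 5, that of Marcksl1 without array 2, 3, 4 or 5, and that of Marcks without array 2, 4, 5 or 6. Without array 5, 0 genes of this list were called, and without array 1, 5 were.

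Among 17 other calmodulin-dependent kinases, 2 rose and 0 fell (11.8%, beside 15.0% of all genes). Camkk2, which activates CaM kinases I and IV and AMPK, was at 0.26 ± 0.15 (adjusted p = 0.0282 in limma), from -0.003 on array 1 to 0.462 on array 2. Camkv, a pseudokinase of the family, was at 0.16 ± 0.11 (adjusted p = 0.0481 in limma; SD, n = 6 for each). Both calls were lost when any one of arrays 2 to 6 was left out.

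Direct regulators and partners of CaMKII held 3 genes that rose and 1 that fell among 12 measured (33.3%, beside 15.0% of all genes). The list median was 0.013. Without single arrays the count was 1 to 4 (8.33% to 33.3%, beside 5.87% to 25.9% of all genes). Ppm1f, a phosphatase that removes phosphate from CaM kinases, had a mean ratio of 0.43 ± 0.22 (adjusted p = 0.00616 in limma). Its 2 spots, listed for the same transcript, stood at 0.83 and 0.02. Camk2n2, an inhibitor protein of CaMKII, gave -0.06 on array 1, whereas arrays 2 to 6 gave 0.35 to 0.58, with a mean of 0.35 ± 0.21 (adjusted p = 0.0296 in limma). That call was lost when any one of arrays 2 to 6 was left out. Creb1, a transcription factor that CaM kinases phosphorylate, was at -0.16 ± 0.06 (adjusted p = 0.0161 in limma; SD, n = 6 for each), with spots at -0.32, -0.20 and 0.06. It was lost without array 2, 5 or 6.

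The calcineurin branch is the calmodulin-dependent phosphatase with its NFAT factors. It held 0 genes that rose and 2 that fell among 14 (14.3%, beside 15.0% of all genes). Both encode inhibitors of calcineurin. Rcan1 was at -0.18 ± 0.06 (adjusted p = 0.00600 in limma), below 0 on 6 of 6 arrays, with spots at -0.35 and -0.002, and with the first spot in place of the mean it was not called (adjusted p = 0.985). Cabin1 was at -0.09 ± 0.05 (adjusted p = 0.0223 in limma; SD, n = 6 for each), and its call was lost when any one of arrays 2 to 6 was left out. The list count was 4 without array 1, with 2 higher and 2 lower (28.6%, beside 25.9% of all genes). Without any other array it was 1 (7.14%, beside 5.87% to 10.6% of all genes).

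Of 16 measured enzymes and pumps that calmodulin regulates, 2 rose and 0 fell (12.5%, beside 15.0% of all genes). Without single arrays the count was 2 or 3 (12.5% or 18.8%, beside 5.87% to 25.9% of all genes). Nos1, the neuronal nitric oxide synthase, lay between 0.232 and 0.885 with a median of 0.645, and rose 1.52-fold (mean ratio 0.60 ± 0.22, adjusted p = 0.00192 in limma). Its spots differed, at 1.12 for a cDNA clone and 0.08 for the RefSeq transcript. Itpka, an inositol trisphosphate kinase that calmodulin activates, was at 0.16 ± 0.07 (adjusted p = 0.00706 in limma; SD, n = 6 for each), above 0 on 6 of 6 arrays.

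The list of other EF-hand calcium sensors and buffers had 5 of 35 genes higher and 1 lower (17.1%, beside 15.0% of all genes). The list median was -0.005. Calu, which encodes the secretory pathway protein calumenin, rose 1.69-fold (mean ratio 0.76 ± 0.23, adjusted p = 0.00192 in limma), and its spots stood at 1.27 and 0.24. Rcn2, a reticulocalbin of the same family, was at 0.54 ± 0.26 (adjusted p = 0.0126 in limma), lost without array 5 or 6. S100a6, or calcyclin, averaged 0.45 ± 0.41 (adjusted p = 0.00192 in limma; SD, n = 6 for each). It split by dye orientation, with 0.095 ± 0.120 in the Cy5 orientation and 0.812 ± 0.130 in the Cy3 orientation (SD, n = 3 each), and in the limma model without the dye term it was not called (adjusted p = 0.0673). Without array 1, 10 genes of this list were called (28.6%, beside 25.9% of all genes), and without array 5 or 6, 3 were (8.57%, beside 5.87% and 6.38%).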

How the data were processed

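The deposited values are log ratios of the 2 channels of each array, read here as log2, for 44290 spots on 6 arrays. What the authors did to make them (scanner, background correction, normalization) is not given in the sources used here, and per the labels' protocols 1 µg of total RNA was amplified and labelled. Array medians lay between -0.004 and 0.005. The signs were kept as deposited, since genes correlated positively between dye orientations (0.537 to 0.714 over arrays 2 to 6) and spots without a gene negatively (-0.674 to -0.643).

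Spots with 1 gene and 6 values (31866) were averaged per gene, with symbols updated through the GRCm38.p6 gene table. Tests used R 4.3.3 and limma 3.58.1 (lmFit, eBayes) with the mean ratio and a dye term, 4 residual degrees of freedom and Benjamini-Hochberg adjustment over 19019 genes at 0.05. The procedure was tested on simulated data. Named were all members, Rest, and up to 3 called genes per list with the largest mean ratio in size. Where none was called in a list, the gene with the smallest p was taken. Also named were the 3 genes nearest to Pcp4, with RIKEN clones, predicted genes and genes with only a clone name skipped. The members and lists were chosen with earlier results of these data known. Promoters are from RefSeq, GRCm38.p6. Array ratios have no sequencing depth; precision here depends on how many arrays there are.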

Additional observations from a re-analysis of the deposited data

Results flagged for a closer look

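Of 39 values examined (genes, single spots of genes with several, and named genes of the lists), 10 had an array far from the other 5. This was by Dixon's criterion at the 95% level, which flags about 1 in 20 independent values by chance. These values are not independent, as Calm3 counts as a gene and through 2 of its spots. The share over all genes was not counted, so nothing is read from the number. The far array was array 1 for 8 of the 10. Pcp4l1 was at -0.989 on array 2, against -0.085 to 0.151 on the others. Calm3 was at -0.334 on array 1, against 0.074 to 0.127, and 2 of its spots at -0.371 and -0.598 there. A spot of Camk2d (AK032524) was at 0.149 on array 1, against -0.037 to 0.013. A spot of Camk2b (AF108718) was at -0.226 on array 6, against -0.020 to 0.084. On array 1, Gap43 was at 0.057, Ppm1f at 0.015, Camk2n2 at -0.061 and Calu at 0.310, each below the other 5 arrays. What sets array 1 apart was not tested.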

How the results depend on the processing

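The mean ratios of all 9 genes moved by less than their standard deviation under quantile normalization. The same held for Calm2, Calm3 and Camk2b under the median of spots and the first spot. Pcp4, Pcp4l1, Nrgn and Camk2g have 1 spot, so those settings leave them unchanged. A mean of 6 arrays cannot move by their standard deviation when 1 array is left out or 1 dye orientation is kept. Those settings are therefore no check by this measure, and without array 2 Pcp4l1 went from -0.165 to -0.001. Pcp4 lay between -1.203 and -1.066 without single arrays. With the first spot per gene, Camk2a was at 0.191 and Camk2d turned to 0.014, and with the median of spots Camk2d was at -0.091. These follow from the spots that disagree. Without single arrays the difference between the spots of Camk2b ran from -0.016 (without array 6) to 0.067. With 5 arrays the exact test of spots cannot pass, so it was not run there.

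Of all genes, 2852 were called. The count was 1116 to 4921 without single arrays, 870 by the unmoderated test and 9 on the Cy5 arrays alone. On the Cy5 arrays alone 0 genes were called in each of the 7 lists. By the unmoderated test 0 were called among calmodulin-like genes, 0 among IQ-domain proteins, 1 among kinases, 0 among CaMKII regulators and 2 among EF-hand sensors. The kinase list of 17 had 1 call with the median of spots, the first spot or robust moderation. Beside it, 2647, 2430 and 2760 of all 19019 genes were called. The calcineurin list had 1 of 14 with the first spot and 4 of 14 on the Cy3 arrays alone. On those arrays the EF-hand list had 11 of 35, beside 4262 of all 19019 genes. Without single arrays the counts ran from 0 to 1 (calmodulin-like), 0 to 5 (IQ-domain), 0 to 3 (kinases), 1 to 4 (CaMKII regulators), 1 to 4 (calcineurin) and 3 to 10 (EF-hand). Of the 16 named list genes, 10 were not called by the unmoderated test, 16 on the Cy5 arrays alone, 3 with the first spot (Camkv, Rcan1 at -0.002 and Cabin1 at -0.010), 1 without the dye term (S100a6) and between 0 and 10 without single arrays. None of the 16 changed sign in the 15 alternatives, though for Rcan1 and Cabin1 the first spot was near 0. Each ratio pairs 2 samples within an array, so the fit is itself paired. No replicate block could be added to it, as there is 1 group of arrays.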
